A study of Mus musculus with 16 samples.

Results

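AP-1 and immediate early transcription factors were followed in hearts of mice lacking PKM2, at rest, after sham surgery and after myocardial infarction (MI). The set was chosen by gene name, with earlier results of these data known. It holds 10 genes, Fos, Fosb, Fosl1, Fosl2, Jun, Junb, Jund, Atf3, Egr1 and Myc. All 10 were among the 55492 genes of the expression table. Of these, 9 reached a mean of at least 10 normalized counts over the 16 libraries and were tested among 20576 genes in all. Jund was the member left untested, with a mean of 2.85 normalized counts and 0 to 10 reads in a library.

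AP-1 is a dimer of basic leucine zipper proteins, in which a Fos or ATF family protein pairs with a Jun family protein. The genes of several of these factors, with Egr1 and Myc, are immediate early genes, which are transcribed within minutes of a stimulus from promoters that serum response factor, ternary complex factors and CREB already occupy. In the heart they are known to respond to ischemia, stretch and catecholamines. Myc pairs with Max and drives genes of growth and ribosome production.

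RNA was sequenced from left ventricle of male C57BL/6 mice aged 8 to 12 weeks, with 1 mouse per library. PKM2fl/fl mice, whose floxed Pkm alleles are intact, were the controls. PKM2-/- mice lack the PKM2-specific exon in all tissues, since the floxed exon was removed in the germline by Cre under a CMV promoter and Cre was then bred out. Each genotype had 2 hearts at baseline, without surgery, 3 hearts at day 3 after sham surgery and 3 hearts at day 3 after permanent ligation of the left anterior descending artery (MI). In bulk tissue a change in the number of cells of a type cannot be told apart from a change in RNA per cell.

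Libraries held 20623769 to 71855101 reads assigned to genes. Loci that collect rRNA-derived reads took a mean of 20.6% of reads in PKM2fl/fl baseline, 23.2% in PKM2fl/fl sham, 40.3% in PKM2fl/fl MI, 43.9% in PKM2-/- baseline, 36.7% in PKM2-/- sham and 30.2% in PKM2-/- MI libraries. Total Pkm, which counts the PKM1 and PKM2 transcripts together and so does not check the deletion, was 8662 ± 837 normalized counts in PKM2fl/fl sham hearts and 13050.1 ± 1272 in PKM2-/- sham hearts (SD, n = 3 each). Its means in PKM2fl/fl and PKM2-/- hearts were 9355 and 12482 at baseline. After MI they were 10737 and 12594, with overlapping hearts. The genotype difference passed at no stage (limma, adjusted p = 0.174 after sham surgery and 0.527 after MI). The 10 cardiomyocyte markers were detected in every library and summed to between 1374580 and 1769640 normalized counts in baseline and sham hearts, and to between 307353 and 683247 after MI. The 11 leukocyte markers summed to 5329 to 11129 normalized counts in PKM2fl/fl sham hearts, 21610.3 to 37993 in PKM2fl/fl MI hearts, 7579 to 9469 in PKM2-/- sham hearts and 30401 to 35041 in PKM2-/- MI hearts. The 8 fibroblast markers summed to 25357 to 46994 in PKM2fl/fl sham hearts and to 164522 to 178375 in PKM2fl/fl MI hearts. In PKM2-/- hearts they summed to 28748 to 46967 after sham surgery and to 143683 to 198375 after MI. By the rule given below, 4 of 8 fibroblast and 7 of 10 tested leukocyte markers were called higher after MI in each genotype. Of all tested genes 12.4% (PKM2fl/fl) and 14.5% (PKM2-/-) were called higher there. Any part of these cell mixtures in the results on MI was not tested.

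The promoters of 5 members are shown because these genes moved in the comparisons and because their windows hold sites for factors of this family or its regulators. Each window runs from 250 bases before to 50 bases after the start of the gene (RefSeq, GRCm38.p6) and reads in the direction of transcription. Of the 10 members, 7 matched a window of the reference set (Fos, Fosb, Fosl2, Jun, Junb, Jund and Atf3). Capitals mark TGACG, the core of the cAMP response element bound by CREB and ATF proteins, and GCGNGGGCG, the site of EGR proteins, each searched on both strands.
Fos (chr12:85473640-85473939, plus strand): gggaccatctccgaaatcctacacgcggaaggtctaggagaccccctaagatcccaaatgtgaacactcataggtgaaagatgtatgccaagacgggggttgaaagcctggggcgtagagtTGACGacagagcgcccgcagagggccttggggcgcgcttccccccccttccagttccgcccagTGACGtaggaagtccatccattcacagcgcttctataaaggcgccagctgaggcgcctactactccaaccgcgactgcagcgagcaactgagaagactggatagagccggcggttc
Fosb (chr7:19309996-19310295, minus strand): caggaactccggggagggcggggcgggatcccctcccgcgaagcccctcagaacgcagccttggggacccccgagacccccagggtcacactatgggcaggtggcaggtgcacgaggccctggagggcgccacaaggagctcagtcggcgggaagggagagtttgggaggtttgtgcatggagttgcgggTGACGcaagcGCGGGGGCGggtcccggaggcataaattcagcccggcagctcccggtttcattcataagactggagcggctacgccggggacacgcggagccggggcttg
Junb (chr8:84978699-84978998, minus strand): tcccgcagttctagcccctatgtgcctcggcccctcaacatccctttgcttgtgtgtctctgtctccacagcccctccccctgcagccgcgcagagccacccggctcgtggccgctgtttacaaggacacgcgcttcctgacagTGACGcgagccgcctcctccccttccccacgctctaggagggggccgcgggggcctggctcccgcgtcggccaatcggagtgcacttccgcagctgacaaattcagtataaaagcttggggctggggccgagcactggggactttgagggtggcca
Atf3 (chr1:191183284-191183583, minus strand): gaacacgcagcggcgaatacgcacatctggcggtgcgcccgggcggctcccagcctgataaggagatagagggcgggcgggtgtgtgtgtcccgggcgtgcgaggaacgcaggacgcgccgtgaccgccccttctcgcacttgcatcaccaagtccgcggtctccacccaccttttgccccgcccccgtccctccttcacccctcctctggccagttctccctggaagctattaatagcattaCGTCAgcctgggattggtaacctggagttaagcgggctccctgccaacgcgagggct
Fosl2 (chr5:32136222-32136521, plus strand): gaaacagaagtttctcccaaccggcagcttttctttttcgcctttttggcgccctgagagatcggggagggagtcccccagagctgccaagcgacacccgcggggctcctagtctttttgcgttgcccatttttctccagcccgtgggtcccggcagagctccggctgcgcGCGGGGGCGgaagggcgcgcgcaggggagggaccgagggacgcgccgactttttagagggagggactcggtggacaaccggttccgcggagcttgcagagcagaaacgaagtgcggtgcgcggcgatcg

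The TGACG core stood 129 and 66 bases before the start of Fos, 60 before that of Fosb, 106 before that of Junb and, on the minus strand, 7 before that of Atf3. It was present in 4 of the 7 member windows and in 20.8% of all 32851 promoter windows of the same length. TGACGT, which contains that core, was present in 2 member windows, those of Fos and Atf3, and in 7.51% of all windows. The EGR site stood 50 bases before the start of Fosb and 79 before that of Fosl2, and was present in 5.55% of all windows. The AP-1 site TGACTCA was in 0 of the 7 windows and in 5.2% of all windows. The STAT site TTCNNNGAA was in 0 of 7 and in 8.3% of all windows, and the CArG box of serum response factor was in 0 of 7 and in 1.63% of all windows. These are matches of letters in short windows.

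Levels of different genes were compared per kilobase of exon. Jun was the most abundant member in PKM2fl/fl baseline hearts, at 288 normalized counts per kb, and Jun, Junb and Fosl2 held the first 3 places in all 6 groups. Junb at 101 and Fosl2 at 91.3 normalized counts per kb in PKM2fl/fl baseline hearts lay within 1 SD of each other. Fosl2 came first in PKM2-/- sham hearts, with 312 normalized counts per kb against 305 for Jun, a gap inside the SD of Fosl2. Junb came first in PKM2-/- MI hearts, with 514 normalized counts per kb against 485 for Jun, which again lay within its SD. Fosb and Jund had the 2 lowest values in every group, though the count of Jund may not reflect its level, as described below. Fosb ranged from 1.73 to 30.8 normalized counts per kb over the group means, and Jund from 1.41 to 2.19.

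**Figure D1:**
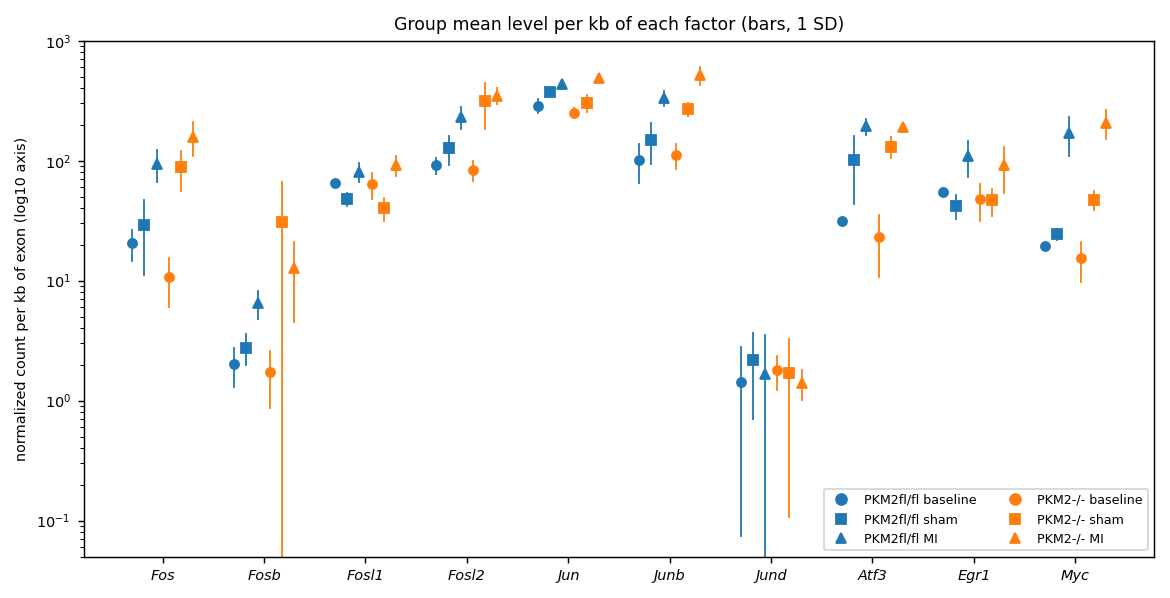
Level of each factor per kilobase of exon (normalized count per kb, log10 axis), as the group mean with a bar of 1 SD to each side, PKM2fl/fl in blue and PKM2-/- in orange. Jun, Junb and Fosl2 lie highest, and the means of Jund stay between 1.41 and 2.19.

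Several members share exon bases with a neighbour on the other strand, and the strand setting of the counting is not given in the sources used here. In the GENCODE M39 annotation 57.2% of the exon bases of Fosl1 were shared with Ccdc85b, which had 246 to 536 normalized counts. Of the exon bases of Jund, 52.6% were shared with the antisense gene Gm11175, which had 0 to 1.31 normalized counts. Jun shared 16.6% with Junos and Junb 7.27% with Prdx2. The levels of Fosl1 and Jund are uncertain for this reason. Whether the overlap accounts for the near absence of Jund reads was not tested.

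**Figure D2:**
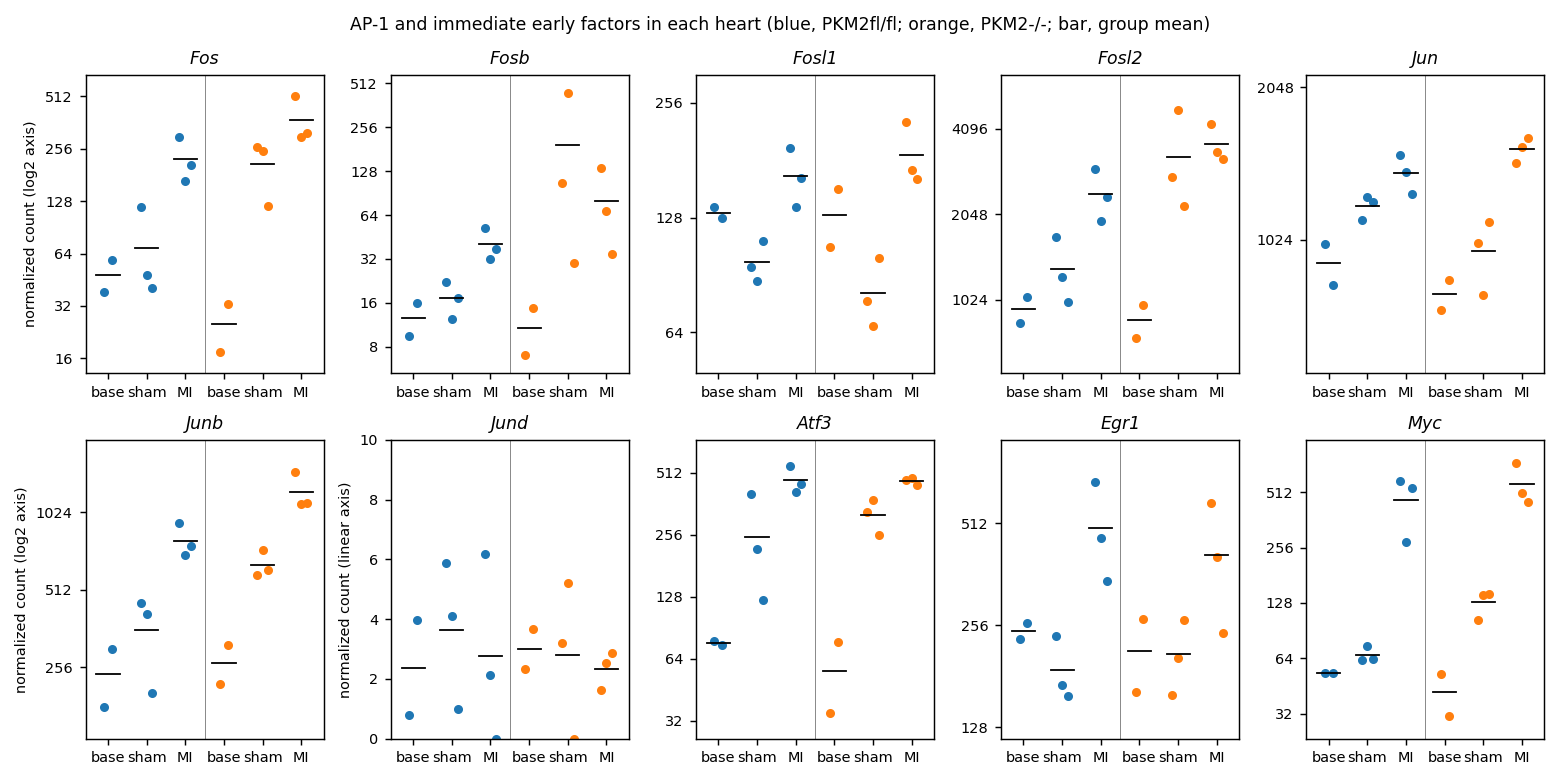
Normalized count of each of the 10 factors in every heart, PKM2fl/fl in blue and PKM2-/- in orange, with a bar at the group mean (log2 axes, a linear axis for Jund). All 9 tested factors were higher in each PKM2fl/fl MI heart than in each PKM2fl/fl sham heart, and Fosb reached 441 in 1 PKM2-/- sham heart.

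MI was first compared with sham surgery in control hearts. Myc, Fos, Egr1, Junb and Atf3 rose at least 2-fold on the log2(normalized count + 1) scale of the fit, and Fosl1 and Fosl2 rose by less. A gene was called when its adjusted p was under 0.05 and its change at least 2-fold. By this rule 5 of the 9 tested members were called higher and 0 lower, beside 12.4% of all tested genes called higher. Each of the 9 was higher in all 3 MI hearts than in all 3 sham hearts, as were 30.0% of all tested genes. The median log2 fold change of the 9 was 1.20, and that of all tested genes was -0.0025.

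Myc was at 62.9, 74.9 and 63.2 normalized counts in PKM2fl/fl sham hearts and at 586, 275 and 539.6 after MI. The sham hearts lay close together and far below the lowest MI heart. The mean after MI was 6.97 times the sham mean, with a log2 fold change of 2.71 ± 0.28 (SE, adjusted p = 2.23e-06, limma). No other member changed as much in these hearts.

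Fos was at 118, 48.2 and 40.7 normalized counts after sham surgery and at 297, 167 and 206 after MI. The highest sham heart stood apart from the other two and below every MI heart. The log2 fold change of Fos was 1.80 ± 0.41 (adjusted p = 0.00173). Egr1, a zinc finger immediate early factor, was at 239, 170.4 and 158 normalized counts after sham surgery and at 676, 464 and 345 after MI. The groups did not overlap, and its log2 fold change was 1.35 ± 0.31 (adjusted p = 0.00210).

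Junb, a Jun family partner of Fos proteins, was at 455, 414 and 204 normalized counts in sham hearts and at 926, 699.8 and 754 in MI hearts. All MI hearts were above all sham hearts, with a log2 fold change of 1.22 ± 0.26 (adjusted p = 0.00127). Atf3, a stress-induced ATF family factor, was at 404, 218 and 123 normalized counts after sham surgery and at 553, 412 and 451 after MI. Its highest sham heart nearly reached the lowest MI heart, and the log2 fold change was 1.08 ± 0.34 (adjusted p = 0.0145), while the ratio of the group means was 1.90. Without PKM2fl/fl sham replicate 3, the lowest sham heart for both genes, neither Junb (0.86) nor Atf3 (0.66) reached 2-fold and 3 members were called. Atf3 was also short of 2-fold without PKM2fl/fl MI replicate 1 (0.96), and by DESeq2 (log2 fold change 0.93) and edgeR (0.91) on the recovered reads.

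Fosl2, which encodes Fra-2, was at 1710.2, 1234 and 1003 normalized counts in sham hearts and at 2966, 1939.6 and 2356 in MI hearts. The groups were apart, with a log2 fold change of 0.89 ± 0.25 (adjusted p = 0.00850) that was under 2-fold. It was called without PKM2fl/fl sham replicate 1 (1.10) or MI replicate 2 (1.04). Fosl1, which encodes Fra-1, had a mean of 97.9 ± 12.2 after sham surgery and 165 ± 29.4 after MI (SD, n = 3 each), and its log2 fold change was 0.74 ± 0.21 (adjusted p = 0.00784). Fosb, whose product has a long-lived short form known as ΔFosB, stood at 12.3 to 22.3 in sham hearts and 32.1 to 52.6 in MI hearts. These low counts gave a log2 fold change of 1.20 ± 0.71 that did not pass (adjusted p = 0.174). Jun had 1193 ± 63.8 and 1389 ± 122, a log2 fold change of 0.22 ± 0.12 (adjusted p = 0.156). Its highest sham heart (1243) nearly reached its lowest MI heart (1263).

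The same comparison was made in PKM2-/- hearts, against their own sham hearts. Myc and Fosl1 rose at least 2-fold and were the 2 members called, with 0 lower, beside 14.5% of all tested genes called higher. Jun, Junb and Egr1 rose by less than 2-fold. In 6 of the 9 members (Fos, Fosl1, Jun, Junb, Atf3 and Myc) every MI heart was above every sham heart, as in 31.7% of all tested genes. The median log2 fold change of the 9 was 0.88.

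Myc was at 103, 141 and 142 normalized counts in PKM2-/- sham hearts and at 739, 505 and 452 after MI. The mean rose 4.39-fold, with a log2 fold change of 2.11 ± 0.28 (adjusted p = 1.26e-05). Fosl1 was at 77.2, 66.6 and 100.3 normalized counts after sham surgery and at 228, 171 and 162 after MI. Its hearts did not overlap, and its log2 fold change was 1.19 ± 0.21 (adjusted p = 1.61e-04).

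Jun was at 1009.6, 795 and 1110.0 normalized counts in PKM2-/- sham hearts and at 1453, 1562 and 1629 in PKM2-/- MI hearts. The MI hearts formed a tight group above all sham hearts, with a log2 fold change of 0.68 ± 0.12 (adjusted p = 2.22e-04). Junb went from 584, 729 and 612 to 1464, 1096 and 1112 normalized counts, a log2 fold change of 0.93 ± 0.26 (adjusted p = 0.00732). Egr1 was at 159, 205 and 265 after sham surgery and at 586, 407 and 242 after MI, so that 1 MI heart lay among the sham hearts. Its log2 fold change was 0.91 ± 0.31 (adjusted p = 0.0213). Junb was called without PKM2-/- sham replicate 2 (1.02) and Egr1 without PKM2-/- MI replicate 3 (1.25).

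The other 4 members did not pass in PKM2-/- hearts. Fos was at 260.4, 247 and 119.7 normalized counts after sham surgery and 512, 300.4 and 313 after MI (log2 fold change 0.88 ± 0.41, adjusted p = 0.0774). Atf3 was at 328, 377 and 255 after sham surgery and at 472, 479.5 and 446 after MI (0.56 ± 0.34, adjusted p = 0.172). For both, all MI hearts were above all sham hearts. Fosl2 was at 2778, 4771 and 2195 after sham surgery and at 4248, 3397 and 3206 after MI, with the groups overlapping (0.22 ± 0.25, adjusted p = 0.476). Fosb was at 106, 441 and 30.2 after sham surgery and at 135, 68.0 and 34.6 after MI. The sham group held both the lowest and the highest Fosb value of these 6 hearts, and the log2 fold change was -0.71 ± 0.71 (adjusted p = 0.411). Without PKM2-/- sham replicate 2 it was 0.26. Without PKM2-/- sham replicate 3, the lowest sham heart for Fos, Fosb, Fosl2 and Atf3 and the one with the largest rRNA-related share of its group (48.6%), Fosb (-1.65, adjusted p = 0.0338) and Egr1 (1.09, adjusted p = 0.0161) were called and the count was 4.

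The count in PKM2-/- hearts depended on scaling. Scaling to the total of all reads gave 7 members called, beside 5573 genes called higher in all. Scaling to the total without rRNA-related loci gave 6, beside 4805 genes. With the deposited normalization 2974 genes were called higher. Under these scalings the median log2 fold change of all genes was 0.52 and 0.38, against 0.01 with the deposited normalization. Each scaling multiplies all genes of a library by 1 factor, so the values of single members had to move with that median. They became 1.39 and 1.25 for Fos, 1.44 and 1.29 for Junb and 1.20 and 1.05 for Jun.

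**Figure D3:**
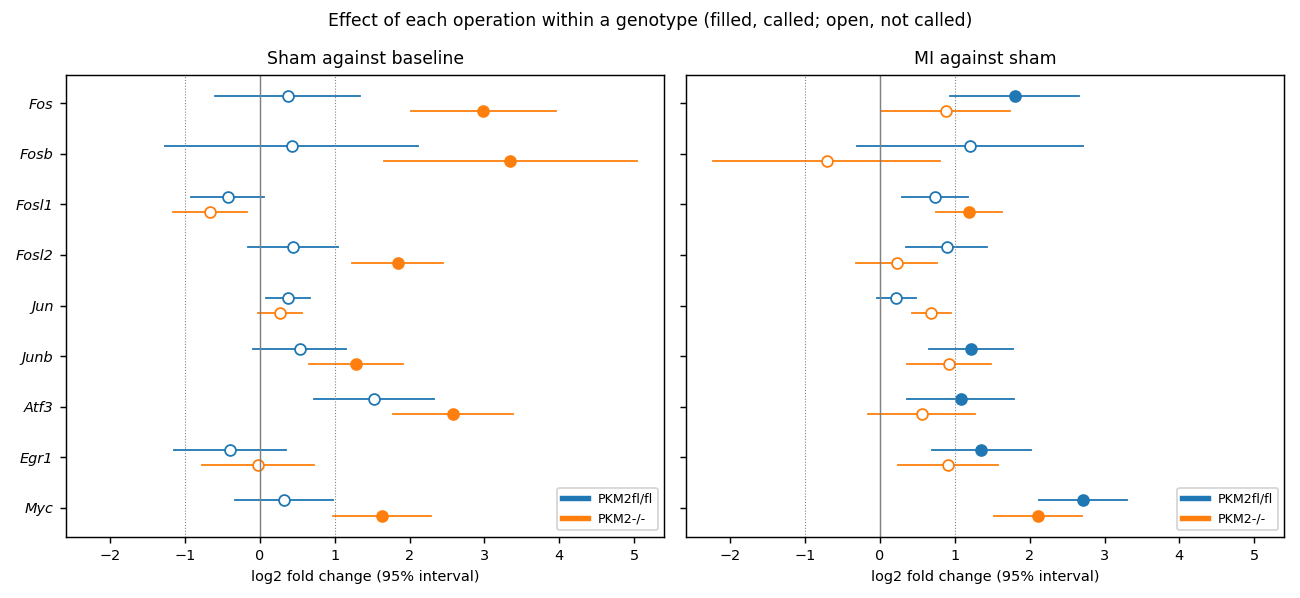
Log2 fold change with its 95% interval for the 9 tested factors, sham against baseline on the left and MI against sham on the right, PKM2fl/fl in blue and PKM2-/- in orange; filled points were called. In PKM2-/- hearts the 6 filled points of the sham panel lie between 1.28 and 3.35. The MI panel holds 2 filled points of PKM2-/- hearts, Fosl1 and Myc, and all 5 of PKM2fl/fl hearts. No difference between the genotypes in these effects was called for any member.

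The difference between the genotypes in the MI effect was tested directly. No member was called, and neither was any of the 20576 genes (0%), with 1703 genes, 8.28%, at an unadjusted p under 0.05. DESeq2 and edgeR on the recovered reads called 0 members as well. Jun was the only member below that unadjusted value, with an effect larger in PKM2-/- hearts by 0.47 on the log2 scale (limma, 95% interval 0.10 to 0.84, unadjusted p = 0.0170, adjusted p = 0.538). Fosb had the widest interval, from -4.05 to 0.23 around a difference of -1.91 (adjusted p = 0.655). The MI effects of the genotypes were thus not shown to differ for any member.

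Sham surgery was then compared with baseline in each genotype, that is, hearts at day 3 after the operation without ligation against unoperated hearts. Any part of other differences between these sets of hearts, such as handling at harvest, was not tested. In PKM2-/- hearts 6 of the 9 tested members rose at least 2-fold, namely Fos, Fosb, Fosl2, Junb, Atf3 and Myc, and 0 were called lower, beside 2.06% of all tested genes called higher. These 6 were higher in all 3 sham hearts than in both baseline hearts, as were 18.4% of all tested genes. The median log2 fold change of the 9 members was 1.63 and that of all genes 0.01. In PKM2fl/fl hearts no member was called, beside 0.170% of all tested genes called in either direction. Unadjusted p was under 0.05 there for 2 members, Jun and Atf3, and for 8.81% of all tested genes. On the recovered reads DESeq2 called 1 member, Atf3, and edgeR 0.

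Fos in PKM2-/- hearts was at 17.5 and 33.0 normalized counts at baseline and at 260.4, 247 and 119.7 after sham surgery. The lowest sham heart was several times the highest baseline heart. The sham mean was 8.28 times the baseline mean, and the log2 fold change was 2.99 ± 0.45 (adjusted p = 0.00251). The control hearts had Fos at 38.5 and 58.4 at baseline and at 118, 48.2 and 40.7 after sham surgery, with overlap and a log2 fold change of 0.37 ± 0.45 (adjusted p = 0.934). Without the highest of these sham hearts, PKM2fl/fl sham replicate 1, it was -0.10.

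Atf3 in PKM2-/- hearts was at 35.0 and 77.0 normalized counts at baseline and at 328, 377 and 255 after sham surgery. Its log2 fold change was 2.58 ± 0.38 (adjusted p = 0.00211). Atf3 in PKM2fl/fl hearts was at 77.7 and 75.0 at baseline and at 404, 218 and 123 after sham surgery. All sham hearts were above baseline in both genotypes, and the change in PKM2fl/fl hearts, 1.52 ± 0.38 on the log2 scale, missed the threshold (adjusted p = 0.118). It passed without PKM2fl/fl sham replicate 3 (1.94, adjusted p = 0.00949).

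Fosl2 in PKM2-/- hearts was at 752 and 982 normalized counts at baseline and 2778, 4771 and 2195 after sham surgery, a log2 fold change of 1.84 ± 0.28 (adjusted p = 0.00266). The PKM2fl/fl hearts were at 849 and 1050.2 at baseline and at 1710.2, 1234 and 1003 after sham surgery (0.44 ± 0.28, adjusted p = 0.770). The control groups overlapped and the PKM2-/- groups did not. Myc was at 52.4 and 31.2 at baseline in PKM2-/- hearts and rose to 103, 141 and 142 (1.63 ± 0.31, adjusted p = 0.00777). Myc in PKM2fl/fl hearts was at 53.4 and 53.1 at baseline and between 62.9 and 74.9 after sham surgery (0.32 ± 0.31, adjusted p = 0.894).

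Junb in PKM2-/- hearts was at 221 and 312 normalized counts at baseline and at 584, 729 and 612 after sham surgery, a log2 fold change of 1.28 ± 0.29 (adjusted p = 0.0212). The PKM2fl/fl hearts were at 181 and 303 at baseline and at 455, 414 and 204 after sham surgery (0.53 ± 0.29, adjusted p = 0.682). Fosb in PKM2-/- hearts was at 6.99 and 14.7 at baseline and at 106, 441 and 30.2 after sham surgery (3.35 ± 0.79, adjusted p = 0.0246). It was low in both PKM2-/- baseline hearts and uneven among the sham hearts, the highest of which was 4.16 times the next. In PKM2fl/fl hearts Fosb was at 9.42 and 15.9 at baseline and between 12.3 and 22.3 after sham surgery (0.42 ± 0.79, adjusted p = 0.966).

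Jun, Fosl1 and Egr1 were not called in either genotype. Fosl1 was lower in every sham heart than in every baseline heart in both genotypes, with log2 fold changes of -0.43 ± 0.23 in PKM2fl/fl (adjusted p = 0.653) and -0.66 ± 0.23 in PKM2-/- hearts (adjusted p = 0.117), neither of which passed. All sham hearts were below both baseline hearts in 15.2% of all tested genes in PKM2fl/fl and 16.1% in PKM2-/- hearts. Jun had 0.38 ± 0.14 in PKM2fl/fl (adjusted p = 0.363) and 0.27 ± 0.14 in PKM2-/- hearts (adjusted p = 0.309). Egr1 was at 163 and 268 normalized counts at baseline in PKM2-/- hearts and at 159, 205 and 265 after sham surgery, a log2 fold change of -0.02 ± 0.35 (adjusted p = 0.984), and it had -0.40 ± 0.35 in PKM2fl/fl hearts (adjusted p = 0.874). Its groups overlapped in both genotypes. The 6 calls rest on only 2 baseline hearts. Without PKM2-/- baseline replicate 2, the higher of them for Fos, Fosb, Fosl2, Junb and Atf3, 3 members were called (Fos, Fosl2 and Atf3), with Myc at 1.26 (adjusted p = 0.106). Fosb lost its call without any 1 of the 2 baseline hearts or of sham replicates 1 and 2 (adjusted p 0.0612 to 0.193), and in a fit of these 2 groups alone (adjusted p = 0.0823). Junb also lost it without baseline replicate 1 (adjusted p = 0.201) or sham replicate 2 (adjusted p = 0.0679).

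The leukocyte markers summed to a mean of 4249 normalized counts at baseline and 8530 after sham surgery in PKM2fl/fl hearts, and to 4437 and 8609 in PKM2-/- hearts. The fibroblast markers summed to 19631 and 35860 in PKM2fl/fl hearts and to 19512 and 36881 in PKM2-/- hearts. Between sham and baseline 4 of 10 tested leukocyte markers and 3 of 8 fibroblast markers were called higher in PKM2-/- hearts, beside 2.06% of all tested genes. In PKM2fl/fl hearts 0 of 10 and 0 of 8 were called, beside 0.160% of all tested genes called higher. The median log2 fold change of the leukocyte markers was 0.97 in PKM2-/- and 0.96 in PKM2fl/fl hearts, and that of the fibroblast markers 0.44 and 0.65. The mean rRNA-related share fell from 43.9% to 36.7% between baseline and sham in PKM2-/- libraries. The part of these markers and of the rRNA-related share in the 6 calls was not tested. Under each total-count scaling the number of members called was also 6. Beside them 553 genes were called higher with the total of all reads and 467 without rRNA-related loci.

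The difference between the genotypes in this sham effect was tested after the data had been seen. No gene was called (0%), and 1294 genes, 6.29%, had an unadjusted p under 0.05, while DESeq2 and edgeR called 0 members. Of the 9 members 4 were among them, all with the larger effect in PKM2-/- hearts. Fos differed by 2.62 on the log2 scale (limma, 95% interval 1.25 to 3.98, unadjusted p = 9.73e-04, adjusted p = 0.421). Fosl2 differed by 1.40 (0.54 to 2.25, adjusted p = 0.517), Myc by 1.31 (0.38 to 2.24, adjusted p = 0.587) and Fosb by 2.93 (0.53 to 5.32, adjusted p = 0.676). None passed the adjustment over all genes, so the sham effects were not shown to differ.

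PKM2-/- and PKM2fl/fl hearts were also compared directly at each stage. At baseline no member was called, beside 0.00972% of all tested genes, and all 9 had an adjusted p of 1.00, with 0 at an unadjusted p under 0.05 (3.64% of all tested genes) and 0 called by DESeq2 or edgeR. Fos (17.5 and 33.0 against 38.5 and 58.4 normalized counts) and Myc (52.4 and 31.2 against 53.4 and 53.1) were lower in both PKM2-/- hearts, with log2 fold changes of -0.95 ± 0.50 and -0.39 ± 0.34. The same order of hearts held for 17.2% of all tested genes. With 2 hearts against 2 the smallest exact permutation p is 0.333.

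After sham surgery no member was called, beside 0.00486% of all tested genes, that is 1 gene, and 6 members had an unadjusted p under 0.05, as had 9.95% of all tested genes. Fos, Fosb, Fosl2, Junb and Myc were higher in every PKM2-/- sham heart than in every PKM2fl/fl sham heart, as were 8.27% of all tested genes. The exact permutation p of each was 0.1, the smallest that 3 hearts against 3 can give. The median log2 fold change of the 9 members was 0.92 and that of all tested genes -0.0056.

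Fos was at 260.4, 247 and 119.7 normalized counts in PKM2-/- and at 118, 48.2 and 40.7 in PKM2fl/fl sham hearts, so that the nearest hearts of the groups almost met. Its log2 fold change was 1.67 ± 0.41 (unadjusted p = 9.17e-04, adjusted p = 0.136). Fosl2 had the smallest p of the members, with a log2 fold change of 1.26 ± 0.25 (unadjusted p = 1.70e-04, adjusted p = 0.0897). Fosb (2.68 ± 0.71, adjusted p = 0.178), Junb (0.92 ± 0.26, adjusted p = 0.216) and Myc (0.92 ± 0.28, adjusted p = 0.237) followed. Jun went the other way and was lower in every PKM2-/- sham heart, by a log2 fold change of -0.31 ± 0.12 (adjusted p = 0.411), as were 8.28% of all tested genes. Its highest PKM2-/- sham heart (1110.0 normalized counts) almost met the lowest PKM2fl/fl sham heart (1121). Fosl1 (-0.28 ± 0.21, adjusted p = 0.741), Atf3 (0.51 ± 0.34, adjusted p = 0.689) and Egr1 (0.14 ± 0.31, adjusted p = 0.942) overlapped between the genotypes.

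These results depended on the tool. DESeq2 on the recovered reads called 3 members higher in PKM2-/- sham hearts, Fos (adjusted p = 0.0143), Fosb (adjusted p = 0.00447) and Fosl2 (adjusted p = 4.89e-04), where edgeR on the same reads called 0. Over all genes DESeq2 called 69 higher and edgeR 1. Without PKM2-/- sham replicate 3, limma called 2, Fosb (3.61, adjusted p = 0.0244) and Fosl2 (1.50, adjusted p = 0.0277), beside 50 genes called in all. With scaling to the total of all reads, under which the median log2 fold change over all genes was -0.33, 1 member had every PKM2-/- sham heart above every control. The share of all tested genes in that order was not computed under this scaling.

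After MI no member was called between the genotypes by limma, DESeq2 or edgeR, beside 0.413% of all tested genes by limma. An unadjusted p under 0.05 was found for 2 members, Fosl2 and Junb, and for 17.0% of all tested genes. Fos, Fosl2 and Junb were higher in every PKM2-/- MI heart than in every PKM2fl/fl MI heart, as were 10.7% of all tested genes. Fosl2 was at 4248, 3397 and 3206 against 2966, 1939.6 and 2356 normalized counts (log2 fold change 0.59 ± 0.25, adjusted p = 0.252). Junb was at 1464, 1096 and 1112 against 926, 699.8 and 754 (0.62 ± 0.26, adjusted p = 0.245). Fos was at 512, 300.4 and 313 against 297, 167 and 206, with its lowest PKM2-/- heart just above the highest control (0.74 ± 0.41, adjusted p = 0.371). Fosb differed by 0.76 ± 0.71 with overlap (adjusted p = 0.630).

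**Figure D4:**
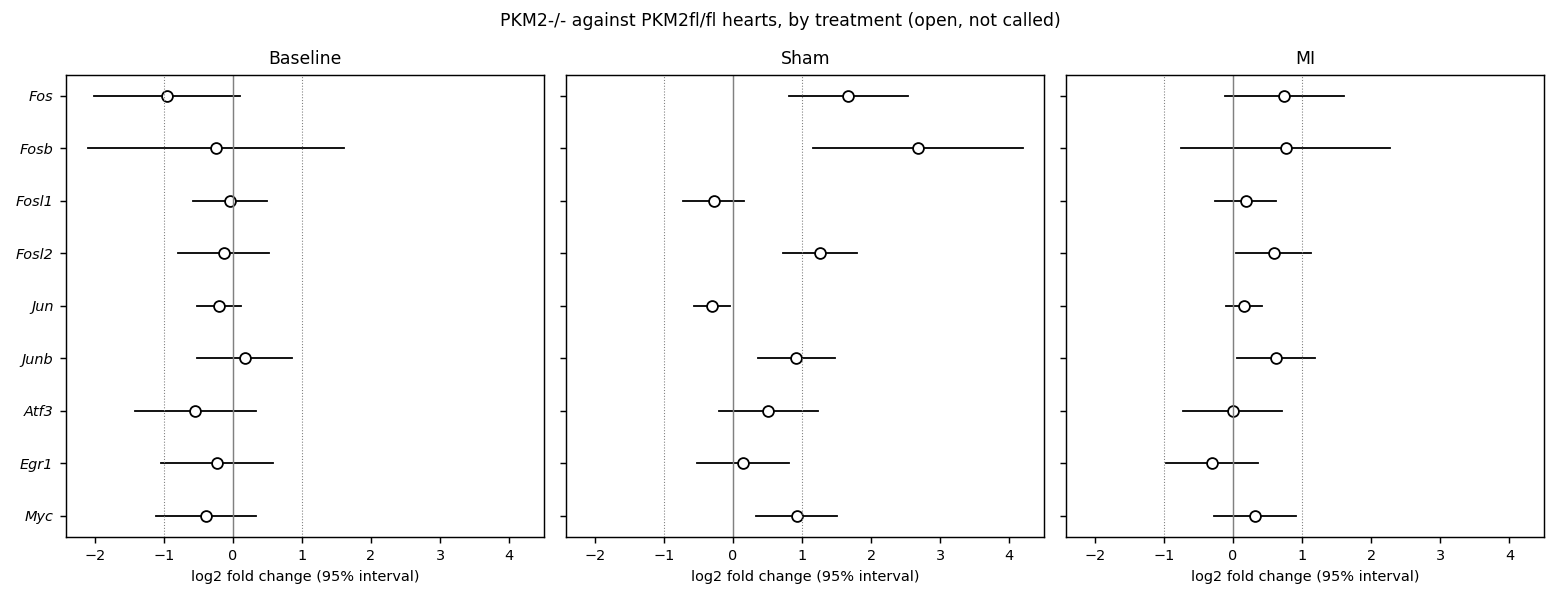
Log2 fold change of PKM2-/- against PKM2fl/fl hearts with its 95% interval at baseline, after sham surgery and after MI; no point was called, so all are open. In the sham panel the intervals of Fos, Fosb, Fosl2, Junb and Myc lie above 0 and that of Jun below it.

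The sham comparisons share their sham hearts with the MI comparisons. Values side by side show where the groups stood. For Fos, the PKM2-/- sham hearts (119.7 to 260.4 normalized counts) overlapped the PKM2fl/fl MI hearts (167 to 297), and for Fosl2 (2195 to 4771 against 1939.6 to 2966) they did so too. For Myc, the PKM2-/- sham hearts (103 to 142) stayed below all PKM2fl/fl MI hearts (275 to 586).

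The members did not all vary together from heart to heart. Over the 16 hearts Pearson's r of log2 values was 0.96 for Fos with Fosl2, 0.94 for Fos with Junb and 0.86 for Fos with Myc. After the group means were removed it was 0.84 for Fos with Fosl2, 0.86 for Fosb with Fosl2, 0.82 for Fos with Atf3 and 0.05 for Fos with Myc. Within groups the r of Jun was -0.69 with Fosb, -0.59 with Fosl2, -0.36 with Fos and 0.47 with Fosl1. The PKM2-/- sham hearts were the most uneven for Fosb, at 106, 441 and 30.2 normalized counts, beside 1009.6, 795 and 1110.0 for Jun. The heart highest for Fosb was thus the lowest for Jun, and the weight of this group in r was not computed. All values of r are descriptions over 16 hearts that share groups and the normalization of each library.

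**Figure D5:**
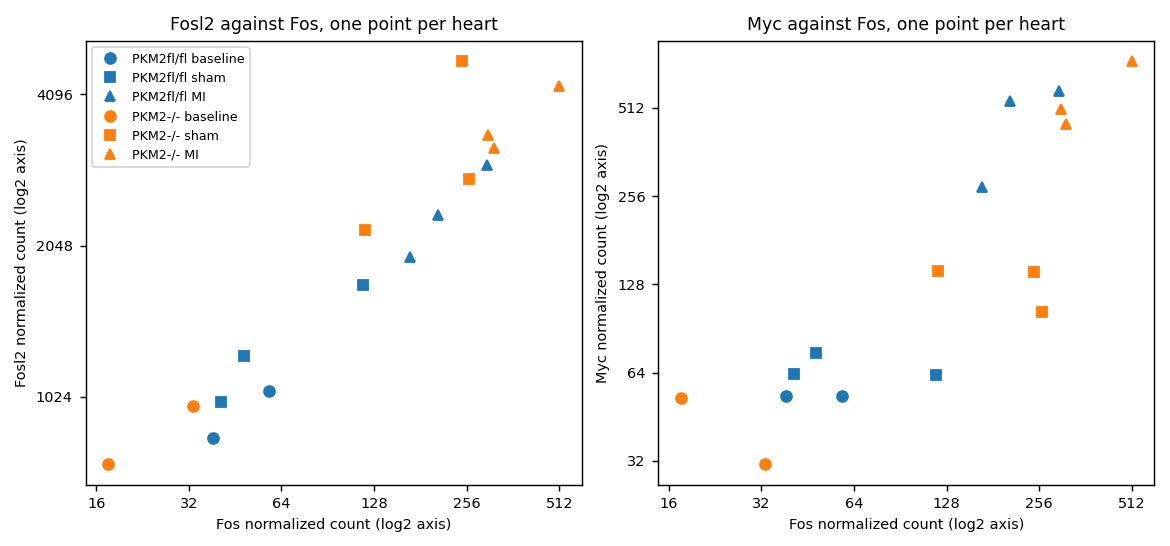
Normalized counts of Fosl2 (left) and Myc (right) against Fos, a point per heart on log2 axes, PKM2fl/fl in blue, PKM2-/- in orange, with circles for baseline, squares for sham and triangles for MI. Fosl2 follows Fos over all groups (r = 0.96), while Myc separates MI hearts from PKM2-/- sham hearts of like Fos level.

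The tested genes whose log2 values followed each member most closely over the 16 hearts were, by Pearson's r, Baiap2 and Enc1 after Fosl2 for Fos (0.95 for both). They were Lrrc8c, Rin3 and Irs2 for Fosb (0.93 to 0.94), and Rin3 and Rhoj before Fos for Fosl2 (0.96 for both). Fosl1 was followed by 2410002F23Rik, Gm28496 and Nlrc3 (0.92 to 0.96). Junb was followed by Socs3, Kcne4 and Hhipl1 (0.97 for all), Atf3 by A330043C09Rik, Casp4 and Tgm2 (0.94 to 0.95), and Egr1 by Gm13601, Xirp2 and Cx3cl1 (0.90 to 0.91). Jun was followed by Rps19, Rplp1 and Ssr4 (0.94 to 0.95), the first 2 of which encode ribosomal proteins. Myc was followed most closely of all by Adamts4, P2ry6 and Tpcn2 (0.99 for all).

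Other genes of the pathway were taken from lists. Upstream of the members, 2 of 17 kinases and ternary complex factors were called higher after MI in PKM2fl/fl hearts, and 0 lower, a share no larger than the 12.4% of all tested genes called higher. These were Mrtfa, a coactivator of serum response factor (log2 fold change 1.05, adjusted p = 4.13e-06), and Rps6ka1, the RSK1 kinase below ERK (1.39, adjusted p = 8.80e-06). Elk3, a ternary complex factor, rose by less than 2-fold (0.67, adjusted p = 8.32e-06). The list's median log2 fold change was -0.0072. In PKM2-/- hearts 1 of the 17, Rps6ka1 (1.59), was called after MI, beside 14.5% of all tested genes called higher. Between sham and baseline 0 of 17 were called in either genotype. Of all tested genes 2.06% (PKM2-/-) and 0.160% (PKM2fl/fl) were called higher there.

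Among 13 other AP-1 related bZIP genes 4 were called higher after MI in PKM2fl/fl hearts and 0 lower, beside 12.4% of all tested genes called higher. Batf, a Jun partner of lymphoid and myeloid cells, rose by 1.62 (adjusted p = 0.00195). Maf rose by 0.98, just under 2-fold (adjusted p = 9.07e-05). After MI 3 of 13 were called in PKM2-/- hearts (14.5% of all tested genes), among them Batf (1.66) and Maf (1.43). Between sham and baseline 2 of 13 were called in PKM2-/- hearts (2.06% of all tested genes), Batf (1.89, adjusted p = 0.0159) and Maff (1.86, adjusted p = 0.00448). After MI Jdp2, which encodes a repressor that dimerizes with Jun proteins, was higher in PKM2-/- than in PKM2fl/fl hearts by 1.03 (adjusted p = 0.0269). It was the 1 call of 13, beside 0.413% of all tested genes called in either direction.

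Among 34 other immediate early genes tested, 8 were called higher after MI in PKM2fl/fl hearts and 0 lower, beside 12.4% of all tested genes called higher. Ccn2 and Ccn1, which encode matricellular proteins, rose by 2.42 (adjusted p = 1.23e-07) and 1.20 (adjusted p = 2.32e-05), and Dusp6, the ERK phosphatase, by 1.04 (adjusted p = 9.12e-05). In PKM2-/- hearts 9 of 34 were called higher after MI (14.5% of all tested genes), and Nr4a1, an orphan nuclear receptor, fell by 1.84 (adjusted p = 0.00173). Nr4a1 was one of the 5 of 34 called higher between sham and baseline in PKM2-/- hearts, beside 2.06% of all tested genes (2.55, adjusted p = 0.00726), with Nr4a3 (2.90, adjusted p = 0.00121), Socs3 (2.27, adjusted p = 0.00563), Nfil3 (1.67) and Sik1 (1.88). In PKM2fl/fl hearts Nr4a3 alone was called between sham and baseline (2.57, adjusted p = 0.0129), beside 0.160% of all tested genes called higher. The clock gene Per1 was higher in PKM2-/- than in PKM2fl/fl hearts after MI by 1.16 (adjusted p = 0.0365). It was the 1 call of 34, beside 0.413% of all tested genes called in either direction.

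Among 16 genes known from other systems to carry AP-1 sites, 12 were called higher after MI in PKM2fl/fl hearts and 15 in PKM2-/- hearts, with 0 lower in either, beside 12.4% and 14.5% of all tested genes called higher. In PKM2fl/fl hearts Hmox1, heme oxygenase 1, rose by 4.50 (adjusted p = 5.15e-08), Lgals3, the macrophage lectin galectin 3, by 4.21 (adjusted p = 1.23e-07) and Vim, vimentin, by 2.20 (adjusted p = 3.97e-08). Between sham and baseline 3 of 16 were called in PKM2-/- hearts (2.06% of all tested genes), Mmp3 (1.87), Plaur (1.77) and Lgals3 (1.34). In PKM2fl/fl hearts 0 of 16 were called (0.160% of all tested genes called higher). The leukocyte and fibroblast marker sums given above rose beside this list, and their part in it was not tested.

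For Myc, 1 of 9 tested partners and antagonists was called after MI in PKM2fl/fl hearts, Mxd3, a Max-binding antagonist (2.15, adjusted p = 9.80e-06), near the 12.4% of all tested genes called higher. Mxd1 rose by 0.68 (adjusted p = 0.00203) and Max itself fell by 0.48 on the log2 scale (adjusted p = 0.00248), both under 2-fold. In PKM2-/- hearts 2 of 9 were called (14.5% of all tested genes), Mxd3 (2.64) and Mxd1 (1.00). Among 13 Myc targets known from other systems, 2 were called higher in PKM2fl/fl hearts, again near the 12.4% of all tested genes, namely Cad, a pyrimidine synthesis enzyme (1.30, adjusted p = 1.09e-06), and Srm, spermidine synthase (1.78, adjusted p = 1.54e-06). The nucleolar Nop58 rose by 0.74 (adjusted p = 1.58e-05). The PKM2-/- hearts had 6 of 13 called, beside 14.5% of all tested genes, namely Cad, Npm1, Nop58, Cdk4, Srm and Fbl, by 1.01 to 1.61. Between sham and baseline, where Myc was called in PKM2-/- hearts, 0 of these 13 targets were called in either genotype. Of all tested genes 2.06% were called higher there in PKM2-/- and 0.160% in PKM2fl/fl hearts. At such shares 0 of 13 does not set these targets apart from other genes.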

How the data were processed

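RNA from 16 left ventricles was depleted of rRNA, made into NEBNext Ultra II libraries and sequenced in paired ends. Before deposit the authors ran PRINSEQ on the reads, HISAT2 against mm10, featureCounts for the count of each gene and DESeq2 for normalization (tools and build as named in the submitters' processing notes and the study's methods, without versions). The deposited table holds this signal, counts divided by a size factor per library, and is called normalized count here. Its values were whole multiples of 1 read in 100% of positive values (tolerance 0.05 reads), so reads were recovered for DESeq2 1.42.0 and edgeR 4.0.16 as alternatives (for MI in PKM2fl/fl hearts edgeR called 2949 genes higher and 2356 lower, limma on the deposited values 2553 and 2279). The deposited table also holds the authors' own fold changes and p-values, which were not used.

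Groups came from the sample labels. The main test was limma 3.58.1 (R 4.3.3) with a trend on log2(normalized count + 1), 6 group means over all 16 libraries, genes with a mean of at least 10, and Benjamini-Hochberg adjustment over all 20576 genes. Fold changes on this scale understate changes of low genes. The 8 planned comparisons and 1 added later were fitted, with the scaling, filter, pseudocount, tool and leave-one-out alternatives described at the end. Of 19 rRNA-related loci listed, 14 were in the table. Exon overlaps came from GENCODE M39 (GRCm39), promoters from RefSeq (GRCm38.p6). The members and lists were chosen with earlier results of these data known. Named genes were all members, the 3 genes of each other list with the smallest p after MI in PKM2fl/fl hearts, up to 3 of a list called elsewhere (more where a count was spelled out, chosen after their values were seen), and the 3 genes most alike to each member; 1 gene that the rule names is not reported here. The scripts were tested on simulated data. Replicate hearts of a group differed by more than sampling noise (chi-square per degree of freedom of at least 16.1). Hearts of different groups with the same number did not deviate together (median r -0.027 over 36 pairs, 1 of them over 0.1), so numbers do not pair the hearts.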

Additional observations from a re-analysis of the deposited data

Results flagged for a closer look

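Among the 9 tested members, 5 values were flagged because the effect of an operation differed between the genotypes at an unadjusted p under 0.05. None passed the adjustment over all genes, of which 1703 (MI effect, 8.28%) and 1294 (sham effect, 6.29%) had such a p. For the MI effect 1 of the 9 members had such a p, near the share of all genes. The MI effect on Jun was larger in PKM2-/- hearts by 0.47 on the log2 scale (unadjusted p = 0.0170). The sham effect was larger in PKM2-/- hearts by 2.62 for Fos (unadjusted p = 9.73e-04), 2.93 for Fosb (unadjusted p = 0.0199), 1.40 for Fosl2 (unadjusted p = 0.00339) and 1.31 for Myc (unadjusted p = 0.00902). The sham comparison was added after the data were seen. Groups of 2 or 3 hearts were too small for a test of single outlying hearts.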

How the results depend on the processing

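Called members kept within 1.5 times of their count under all alternatives not named here. For MI against sham in PKM2-/- hearts, 2 members became 7 with total count scaling, 6 with total count scaling without rRNA-related loci, 4 with edgeR without a filter and 5 with the adjusted p alone. For PKM2-/- against PKM2fl/fl after sham, 0 became 1 with total count scaling, 3 with DESeq2 and 3 with edgeR without a filter, and the 5 members without overlap became 1 with total count scaling. For sham against baseline in PKM2fl/fl hearts 0 became 1 with DESeq2 and 1 with edgeR without a filter. Without a filter edgeR also called 1 member between genotypes after MI, 1 for the difference in the MI effect and 4 for that in the sham effect, each against 0. Why edgeR without a filter differed was not tested.

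Leaving out each heart in turn gave 3 to 6 members called for MI in PKM2fl/fl, 2 to 4 for MI in PKM2-/-, 0 to 2 for the genotypes after sham, 0 to 1 for sham against baseline in PKM2fl/fl and 3 to 6 in PKM2-/- hearts, and 0 in the other comparisons. Values of single members were recomputed for 57 pairs of a member and a comparison, those that the text names. Among these, leaving out a heart turned the sign of 5 uncalled values, with log2 fold changes of -1.65 to 0.26 for Fosb and -0.020 to 0.54 for Fosl2 (MI in PKM2-/-), -0.041 to 0.33 for Egr1 (genotypes after sham, and -0.18 with total count scaling) -0.10 to 0.66 for Fos (sham in PKM2fl/fl) and -0.38 to 0.33 for Egr1 (sham in PKM2-/-). The last was also 0.19 with total count scaling, 0.029 without rRNA-related loci in the total and 0.10 with the replicate block. Of 861 such values under the alternatives, 797 kept their direction and side of the threshold. With the replicate number as a block, 5 members were called for MI in PKM2fl/fl, 2 for MI in PKM2-/-, 6 for sham in PKM2-/- and 0 elsewhere, as without it. Over all genes, total count scaling moved the calls for MI against sham from 2553 higher and 2279 lower to 2055 and 2863 in PKM2fl/fl, and from 2974 and 2949 to 5573 and 1536 in PKM2-/- hearts. Without rRNA-related loci in the total they were 3426 and 1577, and 4805 and 1892. DESeq2 called 69 genes higher and 39 lower between genotypes after sham (limma 1 and 0), 80 and 191 after MI (limma 32 and 53), and 227 and 11 for sham in PKM2fl/fl hearts (limma 33 and 2). Jund, with at most 10 reads in a library, was below the depth needed for a comparison, and the baseline comparisons rest on 2 hearts a genotype.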
